A study of Schmidtea mediterranea with 89 samples.

Results

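A set of 133 of the 36035 identifiers measured in cultured planarian stem cells stayed near its uncultured level through the first day of flat culture and was higher by the third. The members were chosen in experiment 3 from the means of uncultured cells, flat plates at 1 day and flat plates at 3 days, in CPM (counts scaled to library depth) after 4 very abundant identifiers had been dropped. An identifier entered when its uncultured mean was at least 1 CPM, its mean at 3 days was at least 5 CPM, its log2 ratio to uncultured cells was within 0.5 of 0 at 1 day, and that ratio was at least 1 at 3 days. Each ratio was taken after adding 1 CPM to both means. The rule allowed 150 members and 133 identifiers met it. The values of these 9 libraries therefore chose the members and are given as a description, with no test.

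The study asked how culture surroundings change sorted neoblasts of Schmidtea mediterranea. It holds 89 bulk RNA libraries in 5 experiments. All cells were wild type (WT) SiRNeoblasts, kept at 22 degrees C in one serum-containing medium where they were cultured. Experiment 1 set cells in aggregates against non-aggregating cells after 2 days on a flat substrate. Experiment 2 compared 1 day in AggreWell plates, which cluster cells in small wells, with 1 day in flat plates. In experiment 3, besides uncultured cells, neoblasts were kept on flat plates or a soft polyacrylamide (PA) gel of 100 Pa, each for 1, 2 or 3 days, or in U-bottom plates, where cells collect at the base of a round well, for 1 or 3 days. Experiment 4 used uncultured cells and 1 or 3 days on flat plates, on HFF1 feeders (human fibroblasts of an established line) or on MEF feeders (fibroblasts of mouse embryos). Experiment 5 used uncultured cells and 1, 3 or 7 days in flat plates, U-bottom plates, or U-bottom plates with an added extract. There were 3 libraries per group and 2 for the PA gel at 3 days. No label tells whether these are separate cultures or animals. Each p-value therefore measures the spread between libraries, which may be technical.

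Neoblasts are the dividing cells of adult planarians. They include the pluripotent stem cells from which all other cell types are replaced, and they fuel regeneration after injury. Removed from the animal they are hard to keep in a stem cell state, which is why plates, gels, feeder layers and additives are compared. The files list identifiers without gene names, so no role can be given for a member, and the label SiRNeoblast could not be set against marker genes. None of the 53 names in 10 prepared gene lists matched an identifier.

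Total counts ran from 3333661 to 42691160 per library. In experiment 3 the 4 dropped identifiers held 54.6% to 58.4% of the counts in uncultured cells then 65.4% to 69.8%, 67.8% to 74.1% and 65.9% to 71.1% in flat plates at 1, 2 and 3 days. This share was up by the first day, and the ranges of the 3 days overlapped. The number of identifiers detected was 27689 to 28415 in uncultured cells, then 24779 to 26446, 23168 to 23567 and 19534 to 22745, lower on each day with no overlap. The part of the number detected in the members' values was not tested. In bulk samples, more RNA of a kind per cell and more cells of a type that holds it cannot be told apart.

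In the libraries that chose them, the members went up in steps. Their median level was 7.10 CPM in uncultured cells, then 9.08, 12.5 and 16.9 CPM after 1, 2 and 3 days in flat plates. The median log2 ratio to uncultured cells was 0.36, 0.77 and 1.16 on these 3 days, and 116 of the 133 members (87.2%) were already above their uncultured mean at 1 day. Identifiers with a mean of at least 5 CPM over experiment 3 had medians of 0.23, 0.19 and 0.13. At 1 day 61.0% of them were above their uncultured mean. The day 2 libraries took no part in the choice, and the mean there lay between those of day 1 and day 3 for 106 members. Both ends of that span are values the rule used, with day 3 set above day 1, so nothing is read from this count. Most means were already up at day 1, among the members and among identifiers of at least 5 CPM. The delay holds only within the limit of 0.5 that the rule set. Most of the climbs were modest: 77 members had a log2 ratio under 1.2 at 3 days, 17 reached 1.5 and 3 reached 2. The uncultured level was under 10 CPM for 77 members, 10 to 100 CPM for 45 and at least 100 CPM for 11.

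Single libraries mattered for part of the set. All 3 flat libraries at 3 days were above every uncultured and 1 day library for 78 members, 2 of 3 were for 47 members and 1 of 3 for 8. The rule chose on these libraries and no share over all identifiers was counted, so the counts only describe the spread between libraries. A single library held the greater part of the summed day 3 level in 35 members. All flat libraries at 3 days were above all uncultured ones for 101 members, where 30.7% of the identifiers with a mean of at least 5 CPM did the same, and the rule itself favours this direction. The borders of the set were close. SMED30021340 was the last inside on the day 3 ratio, at 1.00, and SMED30034356 was the first outside it, at 0.9985. On the day 1 ratio, SMED30004472 was inside at 0.499 and SMED30008415 outside at 0.504. On the uncultured level, SMED30033031 was inside at 1.09 CPM and SMED30002362 outside at 0.886 CPM. On the day 3 level, SMED30026117 was inside at 5.01 CPM and SMED30002321 outside at 4.96 CPM.

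The membership depended on how the levels were scaled. With 1 of the 9 libraries left out, 90 to 110 of the 133 were still chosen, and 19 were chosen every time. With the 4 abundant identifiers kept in the totals, only 36 identifiers met the rule and 4 of them were among the 133. The climb is therefore one relative to the RNA outside those 4 identifiers.

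The largest ratios rested on part of the libraries. SMED30003527 was at 2.67, 3.24 and 4.15 CPM in the uncultured libraries, at 3.18, 4.01 and 4.10 CPM in flat plates at 1 day, and at 40.7, 52.9 and 5.86 CPM at 3 days. SMED30033031 was at 0.763, 0.579 and 1.92 CPM in uncultured cells and at 17.5, 20.9 and 1.16 CPM in flat plates at 3 days. Replicates 1 and 2 at 3 days carried both members, and replicate 3 lay within the range of the uncultured libraries for SMED30033031 and just above it for SMED30003527.

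The same pair was high together in other single libraries. In U-bottom plates at 3 days SMED30003527 was at 5.31, 11.4 and 55.2 CPM and SMED30033031 at 1.67, 2.40 and 18.6 CPM. In the aggregates of experiment 1 they were at 46.9, 7.61 and 6.10 CPM and at 20.1, 2.77 and 3.80 CPM. Replicate 3 of the U-bottom plates and replicate 1 of the aggregates stood apart from their own groups for both. SMED30033031 had no count in any library of experiments 2, 4 and 5.

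**Figure D1:**
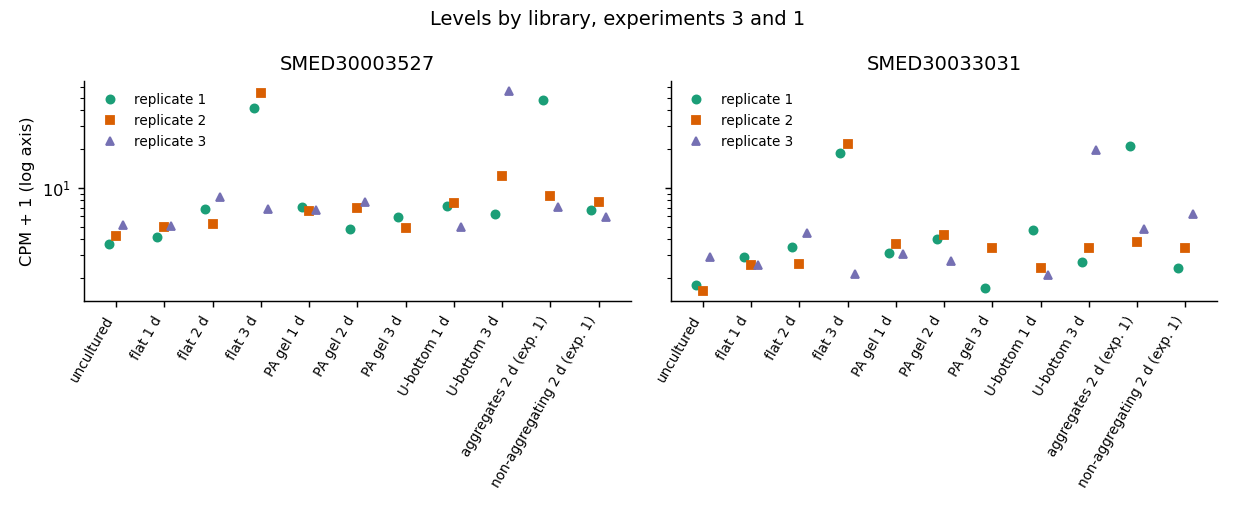
Level of SMED30003527 (left) and SMED30033031 (right) in each library of experiment 3 and of experiment 1, as CPM plus 1 on a log axis, with the replicate number given by colour and shape. Both are high in replicates 1 and 2 of flat plates at 3 days, in replicate 3 of U-bottom plates at 3 days and in replicate 1 of the aggregates.

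SMED30003527 was also high with one of the feeders. It had 0 counts in the 3 uncultured libraries of experiment 4, where 3 counts over the group would be 0.0447 CPM. On HFF1 feeders it was at 66.6, 69.7 and 80.5 CPM at 1 day and at 380, 525 and 450 CPM at 3 days. Against that floor, the HFF1 mean at 3 days was at least 10105-fold higher. On MEF feeders it was at 0.545 to 0.879 CPM at 1 day and 1.25 to 2.54 CPM at 3 days, and on flat plates at 1.96 to 9.30 CPM and 0.790 to 5.88 CPM. All HFF1 libraries lay above all MEF and flat libraries. Whether reads of the human feeder cells were counted under this identifier was not tested. HFF1 at 3 days against 1 day did not pass for it, with a log2 fold change of 1.91 (SE 0.78, n = 3 per group) and an adjusted p of 0.224 by edgeR's quasi-likelihood test.

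Flat plates of experiment 5 are a second set of the same days, with libraries that played no part in the choice. There the members' median log2 ratio of mean CPM to uncultured cells was 0.30 at 1 day, 0.68 at 3 days and 0.68 at 7 days. For the 11591 identifiers with a mean of at least 5 CPM over that experiment, the medians were 0.11, 0.09 and -0.18. At 3 days 103 members were above their uncultured mean, a share of 77.4% where all those identifiers had 54.1%. All 3 libraries at 3 days lay above all uncultured ones for 38 members, which is 28.6% where the background was 19.2%. All 133 members were counted, and only 83 of them averaged at least 5 CPM over experiment 5, so both sets differ in level. The 133 members together summed to 3207 to 4082 CPM in uncultured cells, 4793 to 4903 CPM at 1 day, 5550 to 6452 CPM at 3 days and 5389 to 6787 CPM at 7 days. Day 3 libraries did not overlap with those of day 1 or of uncultured cells in this sum, and day 7 overlapped with day 3.

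Few single members passed a test in experiment 5. Of 123 members that passed the filter on low counts, 6 were higher at 3 days than in uncultured cells by edgeR and 0 were lower, which is 4.88% against 2.23% of all identifiers tested, of which 1.46% were lower. Their median log2 fold change was 0.88, where that of all 24174 tested was -0.19, and 99 of the 123 were positive. An unadjusted p under 0.05, in either direction, was found for 17.1% of the members and 19.8% of all. Leaving out uncultured replicate 2 left 2 calls and leaving out uncultured replicate 3 left 3. At 1 day against uncultured cells 0 members passed in either direction by edgeR, where 0.405% of all were called higher and 0.281% lower, 11 members (8.94%) had an unadjusted p under 0.05 against 10.8% of all, and DESeq2 called 1 higher and 1 lower, where 0.889% and 1.74% of all were. At 3 days against 1 day 1 member rose and 0 fell, where 0.223% of all rose and 0.103% fell, and 86 of the 123 were positive.

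SMED30033407 was among the members that rose over uncultured cells in those flat plates. Its mean was 6.98 ± 2.20 CPM (SD, n = 3) in uncultured cells and 36.5 ± 9.78 CPM (SD, n = 3) at 3 days. The log2 fold change was 2.33 (SE 0.55, edgeR adjusted p = 0.00891), and the groups did not overlap. The call did not pass without replicate 2 at 3 days or without uncultured replicate 2.

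SMED30024144 was the member called higher in the most comparisons of a later day. In experiment 3 it was at 16.0, 12.9 and 12.7 CPM in uncultured cells and at 6.97, 15.3 and 17.1 CPM in flat plates at 1 day. It was at 40.3, 45.8 and 44.7 CPM at 2 days and at 55.4, 59.5 and 39.0 CPM at 3 days. Days 2 and 3 lay apart from both earlier groups and overlapped with each other.

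In U-bottom plates SMED30024144 climbed further. It was at 26.2, 37.0 and 26.0 CPM at 1 day and at 268, 262 and 273 CPM at 3 days, with no overlap. The log2 fold change was 3.15 (SE 0.27, n = 3 per group, edgeR adjusted p = 1.04e-08). On the PA gel it was at 10.0, 13.9 and 10.1 CPM at 1 day, 24.8, 27.0 and 31.1 CPM at 2 days, and 19.2 and 10.2 CPM at 3 days. The 2 libraries at 3 days overlapped with those of 1 day and lay below those of 2 days. The difference between both changes was itself tested: the change on the PA gel minus that in U-bottom plates was -2.66 (SE 0.42, edgeR adjusted p = 0.00934). It was the only identifier called of the 20949 tested, with 0.00477% called lower and 0.0% higher, and the call did not pass without replicate 2 of the PA gel at 1 day, replicate 2 of the PA gel at 3 days or replicate 1 of the U-bottom plates at 1 day.

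In experiment 5 SMED30024144 was again higher at 3 days than at 1 day. It was at 4.31, 9.36 and 3.16 CPM in uncultured cells, and in flat plates at 17.2, 11.9 and 9.13 CPM at 1 day, 62.3, 66.5 and 58.4 CPM at 3 days, and 33.1, 42.0 and 36.0 CPM at 7 days. In U-bottom plates it was at 21.1, 34.5 and 16.5 CPM, then 162, 204 and 174 CPM, then 39.4, 48.1 and 74.8 CPM. Day 3 was the highest in both plates with no overlap with the other days. From 1 to 3 days the log2 fold change was 2.30 in flat plates (SE 0.51, edgeR adjusted p = 0.0363) and 2.90 in U-bottom plates (SE 0.52, edgeR adjusted p = 0.00730), with n = 3 per group. The flat call passed only with all libraries or without replicate 3 at 3 days, and the U-bottom call did not pass without replicate 3 at 1 day. U-bottom against flat plates at 3 days did not pass, at 1.53 (SE 0.49, edgeR adjusted p = 0.407).

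With the added extract SMED30024144 was lower. In U-bottom plates with extract it was at 6.47, 7.02 and 3.52 CPM at 1 day, 19.2, 21.0 and 17.4 CPM at 3 days, and 2.07, 2.31 and 8.71 CPM at 7 days. Every one of these 9 libraries lay below all U-bottom libraries without extract at the same day. At 3 days the log2 fold change of extract against none was -3.32 (SE 0.53, n = 3 per group, edgeR adjusted p = 1.15e-04), and leaving out each library in turn did not end this call.

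SMED30003372 followed SMED30024144 in several of these cultures. In U-bottom plates of experiment 3 it was at 72.9, 80.2 and 71.0 CPM at 1 day and at 219, 256 and 297 CPM at 3 days, a log2 fold change of 1.76 (SE 0.23, n = 3 per group, edgeR adjusted p = 8.52e-06). In experiment 5 it was at 29.1, 22.3 and 17.4 CPM in uncultured cells and at 109, 111 and 109 CPM in flat plates at 3 days, 2.21 higher on the log2 scale (SE 0.51, edgeR adjusted p = 0.00711). That call did not pass without uncultured replicate 2 or without uncultured replicate 3. U-bottom plates at 3 days held 231, 227 and 202 CPM without extract and 23.7, 40.8 and 21.2 CPM with it. The groups did not overlap, and extract against none gave -3.02 (SE 0.53, n = 3 per group, edgeR adjusted p = 3.78e-04).

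**Figure D2:**
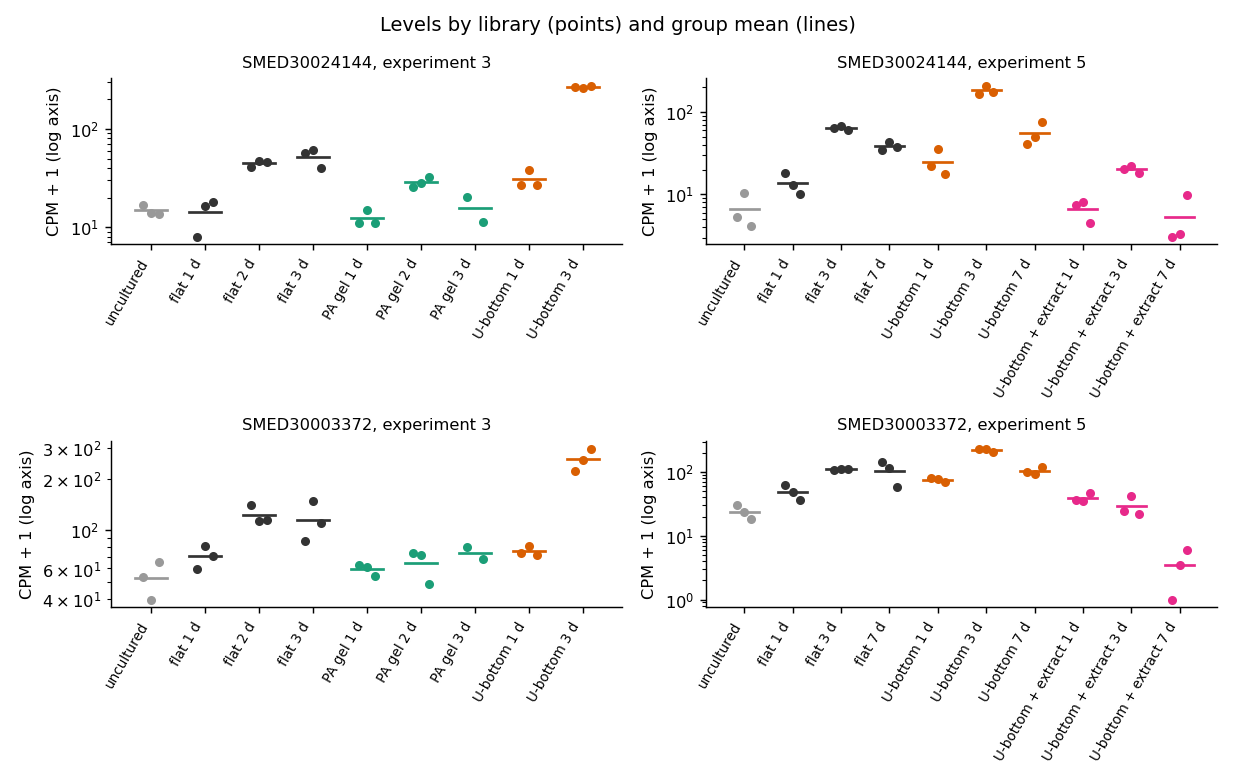
Level of SMED30024144 (top) and SMED30003372 (bottom) in each library of experiments 3 and 5, as CPM plus 1 on a log axis, with points for libraries and a line at the mean of each group. U-bottom plates at 3 days hold the highest points of both members in both experiments, 262 to 273 CPM and 162 to 204 CPM for SMED30024144, and U-bottom libraries with extract lie below those without it at the same day.

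Other cultures of experiment 3 tested whether the climb went on from 1 to 3 days outside flat plates. In U-bottom plates 9 of the 133 members rose and 0 fell, where 1.77% of the 20949 identifiers tested rose and 2.53% fell. The members' median log2 fold change was 0.48 and 107 of 133 were positive, where all identifiers had a median of 0.03 and 51.6% positive. Leaving out replicate 1 at 1 day gave 5 higher members and leaving out replicate 1 at 3 days gave 17. On the PA gel 4 members rose and 0 fell, where 0.286% of all rose and 0.468% fell. The members' median was 0.54, again with 107 positive, where all identifiers had -0.07 and 45.0% positive. The calls on the PA gel dropped to 0 or 1 when any 1 of its 5 libraries was left out.

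SMED30006659 and SMED30033874 had the largest log2 fold changes among the members that rose on the PA gel. SMED30006659 was at 158, 195 and 208 CPM at 1 day, 275, 265 and 262 CPM at 2 days, and 333 and 324 CPM at 3 days, and the days did not overlap. Its log2 fold change from 1 to 3 days was 0.95 (SE 0.21, edgeR adjusted p = 0.0187). For SMED30033874 the mean was 45.2 ± 4.07 CPM (SD, n = 3) at 1 day and 76.5 ± 4.39 CPM (SD, n = 2) at 3 days, with a log2 fold change of 0.89 (SE 0.21, edgeR adjusted p = 0.0283). The first call passed only with all libraries or without replicate 2 at 1 day, and the second did not pass with any 1 of the 5 libraries left out.

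Set beside flat plates, both other cultures held lower summed levels of the members at 3 days. The sum was 8495 to 10743 CPM in flat plates, 7181 to 8295 CPM in U-bottom plates and 7109 to 7596 CPM on the PA gel, and at 1 day it was 5360 to 5822, 5384 to 5694 and 5391 to 5577 CPM. The members were chosen for high flat values at 3 days, which favours this order, so nothing is read from it. At 2 days, where flat libraries were not used by the rule, the PA gel against flat plates gave 0 called members in either direction by edgeR, with 0.0382% of all higher and 0.0143% lower. There 13 members (9.77%) had an unadjusted p under 0.05 against 8.09% of all. DESeq2 called 0 higher and 1 lower, where 0.401% and 0.158% of all were, and the median log2 fold change was -0.18.

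**Figure D3:**
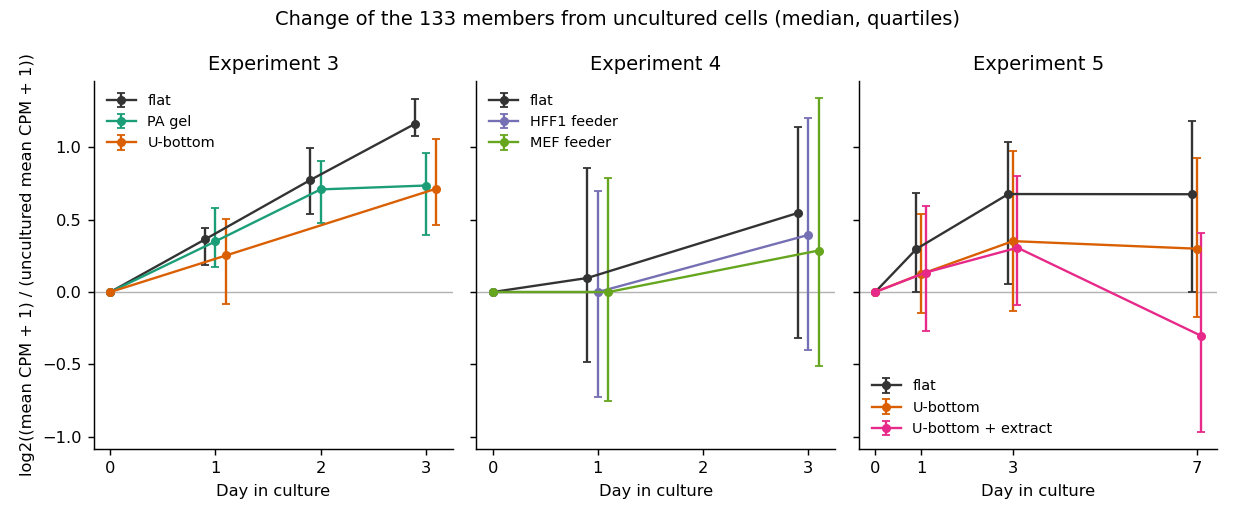
Median and quartiles over the 133 members of the log2 ratio of mean CPM (plus 1) to the uncultured cells of the same experiment, by day in culture, for experiments 3, 4 and 5. The flat values of experiment 3 at 1 and 3 days chose the members. In experiment 5 flat plates reach a median of 0.68 at 3 days, and U-bottom plates with extract drop to -0.30 at 7 days.

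**Figure D4:**
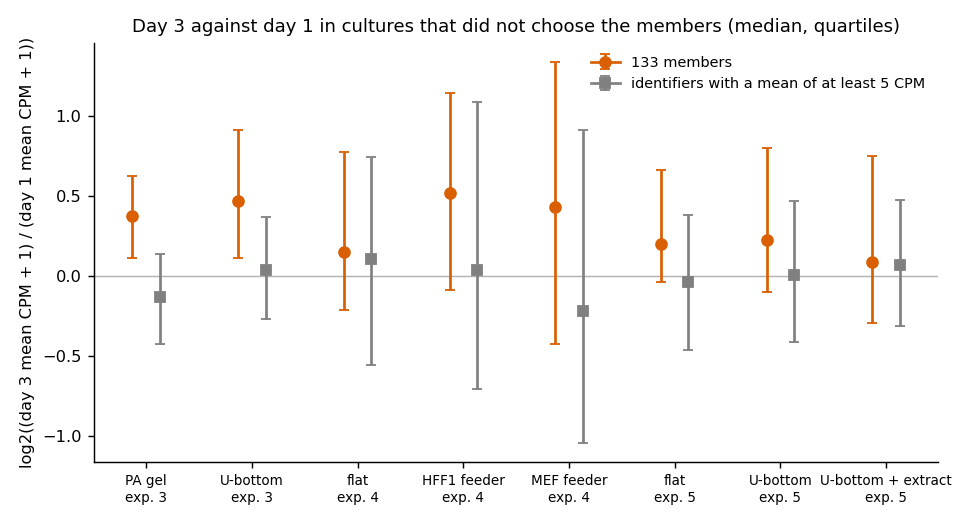
Median and quartiles of the log2 ratio of mean CPM (plus 1) at 3 days to that at 1 day, for the 133 members (orange) and for identifiers with a mean of at least 5 CPM in the experiment (grey), in 8 cultures outside the flat plates of experiment 3. The members' median is 0.37 on the PA gel and 0.47 in U-bottom plates of experiment 3, against -0.13 and 0.04 for the other set.

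In experiment 4 the members were more scattered, as were all identifiers. Flat plates there had a median log2 ratio of CPM to uncultured cells of 0.10 at 1 day and 0.55 at 3 days, with quartiles at 3 days of -0.32 and 1.14. The identifiers with a mean of at least 5 CPM had medians of -0.25 and -0.18 and quartiles at 3 days of -1.02 and 0.64. In flat plates of experiment 5 the quartiles at 3 days were 0.05 and 1.03 for the members and -0.56 and 0.66 for all. Flat libraries of the same day correlated at 0.646 to 0.773 in experiment 4 and at 0.826 to 0.936 in experiment 5 (Pearson r of log2 levels across identifiers, which are not independent replicates). The members' summed level was 4281 to 5253 CPM in uncultured cells, 6906 to 7477 CPM at 1 day and 6960 to 7688 CPM at 3 days, so the sum was as high at 1 day as at 3 days and both lay above uncultured cells. By edgeR 10 of the 122 members that passed the filter were higher at 1 day than in uncultured cells and 1 was lower, where 13.5% of all were higher and 3.14% lower. At 3 days 8 were higher and 1 lower, where 13.7% of all were higher and 2.11% lower. Both shares of higher members, 8.20% and 6.56%, were below the background. With uncultured replicate 2 left out the counts of higher members were 3 and 2, and other libraries gave up to 10 and 6. The 1 lower member of each day was lost whichever library was left out. DESeq2 called 21.3% and 20.5% of the members higher, where 21.0% and 21.1% of all were. The median of all tested identifiers was 0.30 and 0.21 at these days with TMM and 0.61 and 0.56 with RLE size factors. The members' median minus it was 0.21 and 0.49 with TMM and 0.19 and 0.49 with RLE. With only the compared groups in the fit it was 0.68 and 0.98, and the median of all identifiers at 1 day turned to -0.11.

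From 1 to 3 days, experiment 4 gave few calls. In flat plates 0 members passed by edgeR, as did 0.0% of all, while 10 members (8.20%) had an unadjusted p under 0.05 against 8.16% of all. DESeq2 called 3 higher and 0 lower there, where 0.919% and 0.59% of all were. On HFF1 feeders 0 passed by edgeR, with 0.00383% of all higher and 0.0115% lower, while 21 (17.2%) had an unadjusted p below 0.05 against 17.4% of all. DESeq2 called 10 higher (8.20%) and 1 lower there, where 5.11% and 1.38% of all were. On MEF feeders 2 members rose and 1 fell, where 0.709% and 0.862% of all did. Without replicate 3 at 3 days 2 rose and 13 fell, and 0 rose with any other library left out. MEF libraries held 16518405 to 18070258 counts at 1 day and 6775383 to 19777036 at 3 days. The 4 abundant identifiers held 31.1% to 36.5% and then 48.9% to 58.2% of these counts. The part of depth or of this share in the MEF calls was not tested. Both feeders against flat plates at 3 days gave 0 members by edgeR and 0.0% of all, while 13 members (10.7%) had an unadjusted p below 0.05 against 8.69% of all. DESeq2 called 1 higher and 0 lower, where 0.326% and 0.31% of all were.

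The direction of the whole set on feeders depended on the scale. On the CPM scale the members' median from 1 to 3 days was 0.52 on HFF1 and 0.43 on MEF feeders, where identifiers of at least 5 CPM had 0.04 and -0.22. In the edgeR fit, scaled by the trimmed mean of M values (TMM), the medians of tested members were -0.00 and -0.05. There all 26107 tested identifiers, many of them sparse, had medians of 0.94 and 1.44. With RLE size factors the members had 0.53 and 0.64, and all had 1.39 and 2.18. The members' median minus that of all tested identifiers was -0.95 and -0.86 on HFF1 feeders under TMM and RLE, and -1.49 and -1.54 on MEF feeders. With only the compared groups in the fit it was -0.26 on HFF1 and turned to 0.20 on MEF feeders.

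Single members stood out in experiment 4. SMED30024144 was at 2.54, 6.18 and 3.13 CPM in uncultured cells, 0.148, 1.81 and 0 CPM in flat plates at 1 day and 57.2, 13.0 and 25.9 CPM at 3 days. On MEF feeders it was at 2.02, 0 and 0.726 CPM at 1 day and at 43.0, 69.6 and 96.2 CPM at 3 days, and on HFF1 feeders at 12.3, 10.4 and 2.68 CPM and then at 188, 98.7 and 30.9 CPM. Day 3 lay above day 1 with no overlap in all 3 cultures. Only the MEF change passed, with a log2 fold change of 5.60 (SE 1.42, n = 3 per group, edgeR adjusted p = 0.0422), and leaving out any 1 of the 6 libraries raised it above the threshold. In flat plates the change was 5.57 (SE 1.42, edgeR adjusted p = 0.470).

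SMED30015074 and SMED30016221 were the members named for their rise in flat plates of experiment 4. SMED30015074 had means of 51.3 ± 6.13, 237 ± 86.2 and 281 ± 70.7 CPM (SD, n = 3 each) in uncultured cells, at 1 day and at 3 days. Its log2 fold changes over uncultured cells were 2.43 at 1 day (SE 0.56, edgeR adjusted p = 0.00703) and 2.46 at 3 days (SE 0.56, edgeR adjusted p = 0.00659), so in this experiment it was already up at the first day. The call at 3 days did not pass without replicate 3 of that day. SMED30016221 was at 2.33, 1.15 and 0.574 CPM in uncultured cells, 7.46, 57.6 and 8.34 CPM at 1 day, and 22.5, 36.6 and 20.2 CPM at 3 days. One library, replicate 2, was much higher than the others at 1 day. Its calls did not pass without uncultured replicate 2 or 3 at either day, nor without replicate 2 at 1 day. SMED30027550 fell on MEF feeders from 207 ± 56.5 CPM at 1 day to 58.4 ± 15.0 CPM at 3 days (SD, n = 3 each), with a log2 fold change of -2.55 (SE 0.55, edgeR adjusted p = 0.0252). That call did not pass without replicate 3 at 1 day or without replicate 1 or 2 at 3 days.

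In U-bottom plates of experiment 5 the members' summed level was 4154 to 4813 CPM at 1 day, 5167 to 5759 CPM at 3 days and 3558 to 4952 CPM at 7 days. It overlapped with that of flat plates at 1 and 3 days and lay below it at 7 days. U-bottom against flat plates at 3 days gave 0 members by edgeR, where 0.00414% of all were called in each direction. The members' median log2 fold change was -0.15, and 16 (13.0%) had an unadjusted p under 0.05 against 11.7% of all. DESeq2 called 1 higher and 4 lower (3.25%), where 1.16% and 0.765% of all were. From 1 to 3 days 1 member, SMED30024144, rose in U-bottom plates, where 0.376% of all rose and 0.0951% fell, and the median of 123 members was 0.29 with 80 positive. The U-bottom change minus the flat change gave 0 members by edgeR, with 0.0% of all higher and 0.00414% lower, and the median was 0.05. There 6 members (4.88%) had an unadjusted p below 0.05 against 8.34% of all, and DESeq2 called 0 higher and 3 lower, where 0.616% and 0.488% of all were.

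From 3 to 7 days edgeR called few members in plates without extract. In flat plates 1 member rose and 1 fell, where 2.64% and 0.405% of all did. SMED30005193 rose there, from 0.234, 7.24 and 4.80 CPM at 3 days to 21.2, 57.9 and 36.2 CPM at 7 days, a log2 fold change of 3.47 (SE 0.95, n = 3 per group, edgeR adjusted p = 0.0348). The days did not overlap, but the call did not pass without replicate 1 or 3 at 3 days or without replicate 2 at 7 days. The 1 member that fell did so only with all libraries or without replicate 1 or 2 at 3 days. In U-bottom plates 2 members rose and 0 fell, where 3.6% of all rose and 0.902% fell. DESeq2 called 7 higher and 1 lower in flat plates, where 7.72% and 1.53% of all were. In U-bottom plates it called 11 and 1, where 10.7% and 2.14% of all were. An unadjusted edgeR p under 0.05 was found for 9.76% and 13.8% of the members, against 19.8% and 24.3% of all. The median ratio of the members on the CPM scale was 0.00 in flat and -0.13 in U-bottom plates, against -0.27 and -0.47 for identifiers of at least 5 CPM. In the TMM-scaled fit the medians were 0.22 and 0.17, against 0.19 and 0.38 for all identifiers tested, so the sign for U-bottom plates differed between the scales. The members' median minus that of all tested was -0.21 with TMM and -0.19 with RLE size factors there, and turned to 0.04 with only the compared groups in the fit.

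In U-bottom plates with extract the summed level of the members was 4825 to 5301 CPM at 1 day, 4602 to 5053 CPM at 3 days and 1843 to 2335 CPM at 7 days. Days 1 and 3 overlapped, and day 7 lay below every uncultured library. From 1 to 3 days 0 members rose and 1 fell, where 0.0579% of all rose and 0.0869% fell. The member that fell was SMED30003905, at 912, 864 and 1003 CPM at 1 day, 544, 564 and 417 CPM at 3 days and 124, 97.1 and 109 CPM at 7 days, with no overlap between days. Its log2 fold change from 1 to 3 days was -0.96 (SE 0.19, n = 3 per group, edgeR adjusted p = 0.0155), and from 3 to 7 days -1.16 (SE 0.19, edgeR adjusted p = 3.83e-05). The call from 1 to 3 days passed only with all libraries or without replicate 2 at 1 day. The extract change minus the no-extract change from 1 to 3 days had a median of -0.36 over the tested members and gave 0 calls by edgeR, with 0.0165% of all higher and 0.00414% lower. The median ranged from -0.41 to -0.14 over the alternatives and was -0.14 without replicate 3 and -0.20 without replicate 2 of the U-bottom plates at 3 days. There 15 members (12.2%) had an unadjusted p below 0.05 against 9.36% of all, and DESeq2 called 1 higher and 2 lower, where 0.625% and 0.529% of all were.

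At 7 days with extract most measured identifiers were lower on the CPM scale. There 59.5% of identifiers of at least 5 CPM were at least 2 times lower than in uncultured cells (on the scale of CPM plus 1) and their median log2 ratio was -1.39, where the members' median was -0.30 with 33 members that low. By edgeR 5 members rose and 11 fell from 3 to 7 days, where 6.2% and 8.53% of all did, and with RLE size factors 9 were higher and 6 lower. The median of tested members was 0.04 and that of all identifiers 0.44 with TMM scaling, and 0.62 and 1.03 with RLE size factors, so the difference between the medians was -0.40 under both. With only the compared groups in the fit the members had -0.18, all had -0.03 and the difference was -0.14. On the CPM scale the members' median was -0.66 and that of identifiers of at least 5 CPM -1.33.

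Members went both ways at that time. SMED30016221 was at 2.69, 3.28 and 7.07 CPM with extract at 3 days and at 38.2, 44.6 and 31.1 CPM at 7 days, 4.18 higher on the log2 scale (SE 1.08, edgeR adjusted p = 0.00629). SMED30005193 was at 24.1, 26.6 and 16.4 CPM and then at 63.2, 116 and 139 CPM, 3.29 higher (SE 0.93, edgeR adjusted p = 0.0136). Neither pair of days overlapped, and both members were also higher at 7 than at 3 days in every flat and U-bottom library. The mean of SMED30023906 was 41.9 ± 5.30 CPM (SD, n = 3) at 3 days and 2.17 ± 1.85 CPM (SD, n = 3) at 7 days, with a log2 fold change of -3.21 (SE 0.60, edgeR adjusted p = 1.95e-04). SMED30012577 went from 27.5 ± 6.87 to 2.02 ± 2.62 CPM (SD, n = 3 each), with a log2 fold change of -2.72 (SE 0.78, edgeR adjusted p = 0.0153). SMED30005193 did not pass without replicate 3 at 3 days, nor SMED30012577 without replicate 1 at 3 days or replicate 1 or 3 at 7 days.

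At 3 days the extract itself was tested against none. Of 123 members 2 were higher and 5 lower, where 1.03% and 1.83% of all were. SMED30024144 and SMED30003372 were the lowest of these, as given above. SMED30035182 was higher with extract, at 163 ± 40.6 CPM against 58.2 ± 24.0 CPM (SD, n = 3 each), with a log2 fold change of 1.39 (SE 0.38, edgeR adjusted p = 0.0345), and passed only with all libraries, without replicate 2 of the plates with no extract or without replicate 3 of those with it. The members' median log2 fold change was -0.06 and that of all identifiers 0.17. Leaving out 1 library at a time gave 2 or 3 lower members.

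AggreWell plates held less of the members than flat plates at 1 day in experiment 2. The summed level was 2941 to 3920 CPM in AggreWell and 4462 to 5479 CPM in flat libraries, with no overlap. On the same CPM scale the members' median log2 ratio was -0.41, where identifiers with a mean of at least 5 CPM had -0.27. All AggreWell libraries lay below all flat ones for 27.1% of the members and 26.4% of those identifiers, a near equal share. They lay above them for 8.27% and 22.2%. By edgeR 15 of 115 tested members were lower and 4 higher, where 9.15% of all were lower and 11.8% higher. The median log2 fold change was -0.45 and 37 members were positive, where all 18266 identifiers had -0.02 and 49.6%. Leaving out AggreWell replicate 2 left 3 lower and 0 higher members, and leaving out flat replicate 1 left 5 lower and 0 higher.

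SMED30010906 was at 31.6 ± 7.68 CPM in AggreWell and 95.7 ± 2.17 CPM in flat plates (SD, n = 3 each), with a log2 fold change of -1.54 (SE 0.28, edgeR adjusted p = 0.00342). SMED30022125 was at 7.97 ± 5.89 and 26.1 ± 6.40 CPM (SD, n = 3 each), and the log2 fold change was -1.69 (SE 0.50, edgeR adjusted p = 0.0257). In the other direction SMED30000616 was at 25.9 ± 6.87 and 10.2 ± 2.90 CPM (SD, n = 3 each), and its log2 fold change was 1.42 (SE 0.39, edgeR adjusted p = 0.0183). SMED30016221 was at 84.0, 61.5 and 58.8 CPM in AggreWell and 22.9, 33.0 and 39.1 CPM in flat plates, a log2 fold change of 1.18 (SE 0.30, edgeR adjusted p = 0.0134). None of these 4 overlapped between the plates. Only SMED30010906 passed with each library left out in turn. Without AggreWell replicate 2 or flat replicate 1 the other 3 did not pass, and neither did SMED30000616 and SMED30022125 without flat replicate 3, nor SMED30022125 without AggreWell replicate 1.

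Cells in aggregates and non-aggregating cells of experiment 1 gave 0 called members by edgeR, as they did 0.0% of all identifiers, while 2 of 120 tested members (1.67%) had an unadjusted p below 0.05 against 1.67% of all. DESeq2 called 0 members, 0.011% of all higher and 0.0% lower. The summed level was 2846 to 4364 CPM in aggregates and 3617 to 5097 CPM outside them, which overlapped. SMED30024144 was at 47.8, 207 and 249 CPM in aggregates and 45.5, 155 and 108 CPM outside, low in replicate 1 of both. The difference was 0.81 on the log2 scale (SE 0.60, edgeR adjusted p = 1.00).

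The shape that defined the set was also counted in the other cultures, by the same limits on the same scale. An identifier was judged only with at least 1 CPM in uncultured cells and at least 5 CPM at 3 days of that culture. Low members therefore entered only where they were high at 3 days. In flat plates of experiment 5 this left out 46 members and kept 87. Of the 87, 14 met both limits, 16 were already past 0.5 at 1 day and past 1 at 3 days, and 32 were past 1 at 3 days. Of all 10315 judged identifiers, 1096 were already past 0.5 at 1 day and past 1 at 3 days. The shares were 16.1% for the delayed shape, where 3.42% of all judged identifiers showed it, and 36.8% for the level at 3 days, where 14.5% did. In U-bottom plates of experiment 5, 13 of 79 members met both limits against 3.84% of all, and with extract 11 of 80 against 3.18%. In flat plates of experiment 4, 6 of 71 met both against 2.74%, and 21 were already up at 1 day, as were 1082 of 9300 judged identifiers. HFF1 feeders gave 6 of 68 against 4.21% and MEF feeders 9 of 72 against 4.17%. U-bottom plates and the PA gel of experiment 3, which share the uncultured libraries with the rule, gave 26 of 104 and 8 of 102, where 3.4% and 0.899% of all did, and nothing is read from them. These are counts of means with no test. The judging used the level at 3 days, so nothing is read from the shares of judged members.

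Across 10 comparisons of a later day with 1 day or uncultured cells outside the libraries of the rule, 22 members (16.5%) were called higher at least once and 5 (3.76%) at least 2 times. Of the 29062 identifiers tested in any of them, 14.6% and 1.6% were, so the share called at least once was near that of all identifiers. SMED30024144 was called in 5 of the 10 and SMED30003372 in 3. Several of these comparisons share libraries, so the calls are not independent. In any of the 24 comparisons, 46 of the 133 members (34.6%) were called in either direction at least once, where 38.3% of 29585 identifiers were.

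**Figure D5:**
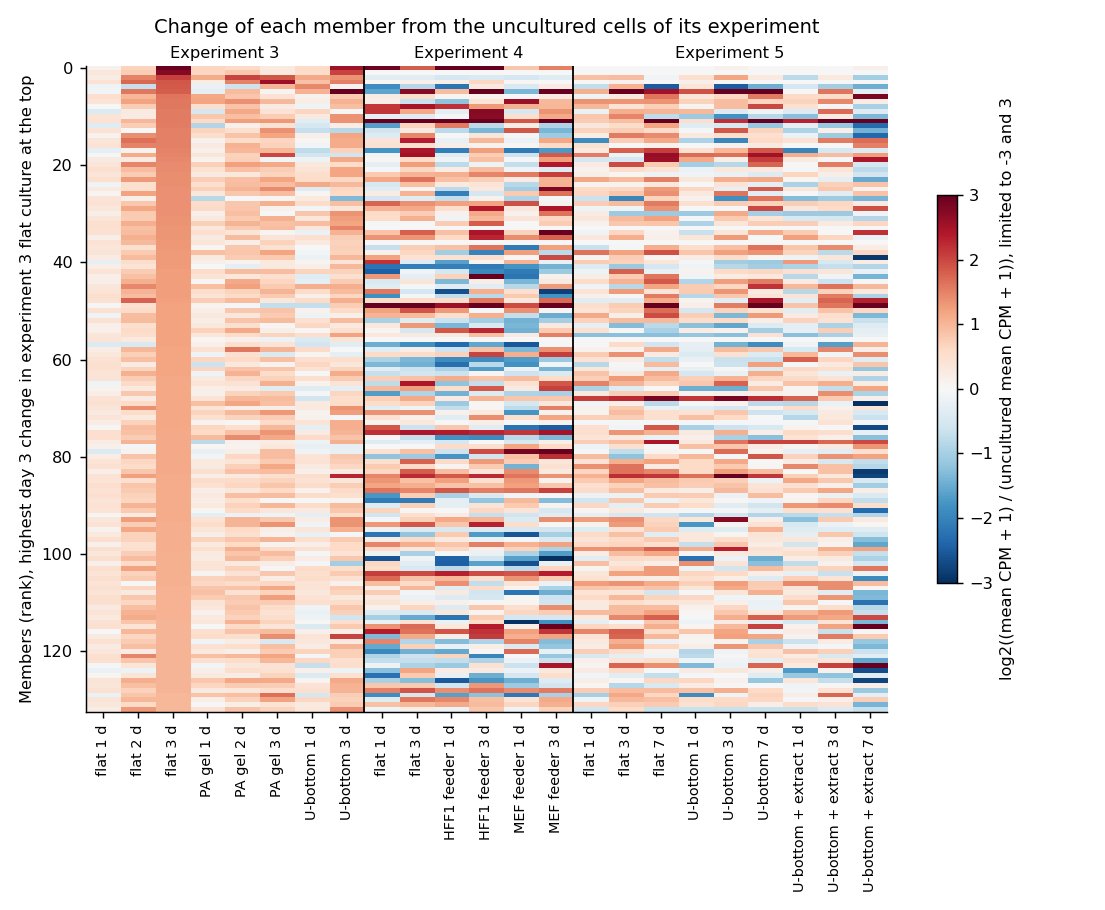
Log2 ratio of mean CPM (plus 1) to the uncultured cells of the same experiment for each of the 133 members (lines, ordered by their ratio in flat plates at 3 days of experiment 3), with colours limited to -3 and 3. The flat column at 3 days of experiment 3 is red throughout because it chose the members. The flat column at 3 days of experiment 4 has quartiles of -0.32 and 1.14, and the column with extract at 7 days holds 33 members at -1 or below.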

How the data were processed

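Libraries were made with a template-switching oligo, PCR and Tn5 tagmentation, per the labels' protocols. No molecular identifiers are mentioned there, so floors cover counting error only. The authors deposited 1 table per experiment: estimated counts in experiments 1 to 3, and whole counts in experiments 4 and 5. Between 94.9% and 98.1% of non-zero values were not whole within 0.01 in the first 3 tables and 0% in the others. The submitters' processing notes name kallisto 0.46.2 and R 4.0.5 without a role. The transcriptome and genome build used were not given in the sources used here.

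Levels are CPM outside SMED30032887, SMED30027385, SMED30027845 and SMED30026765. Their log2 ratios are of group means with 1 CPM added, so changes of low identifiers are understated. On this scale members were counted whatever their level, while the set beside them held identifiers with a mean of at least 5 CPM. Levels set across tables compare separately made tables. No 2 libraries of a group held identical values.

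For tests, estimated counts were rounded, low identifiers were dropped by edgeR's default filter, libraries were scaled with TMM, and all groups of an experiment were fitted together with edgeR 4.0.16 (quasi-likelihood F test, two-sided, in R 4.3.3), after the procedure was tested on simulated data. P-values were adjusted by Benjamini-Hochberg over all identifiers tested in a comparison, with a threshold of 0.05. Standard errors (SE) were derived from the log2 fold change and F. Tests used no contrast with the 9 libraries of the rule. Alternatives were RLE size factors, no filter, DESeq2 1.42.0, the compared groups alone, the replicate number as a block, the 4 identifiers left out, and each library left out in turn; 1 PA gel library then remains at 3 days and is assumed to vary like the others.

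The members and lists were chosen with earlier results of these data known. Named members are the called ones with the highest and lowest log2 fold changes, at most 2 each way, among those with a mean of at least 10 CPM and no overlap between libraries, plus the 2 highest ratios at 3 days and the 2 called higher most often. A member named in 1 comparison and described in another was chosen there after its values were seen.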

Additional observations from a re-analysis of the deposited data

Results flagged for a closer look

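SMED30024144 changed differently on the PA gel and in U-bottom plates of experiment 3. The test of the difference between both changes from 1 to 3 days gave -2.66 on the log2 scale (edgeR adjusted p = 0.00934). It was at 10.0 to 13.9 CPM at 1 day and 10.2 and 19.2 CPM at 3 days on the gel, and at 26.0 to 37.0 CPM and then 262 to 273 CPM in U-bottom plates. The gel at 3 days has 2 libraries. Without replicate 2 of the PA gel at 3 days the difference was -2.35 and no longer passed.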

How the results depend on the processing

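No call of a named member turned its direction while past the threshold under any alternative run. The balance of called members did turn with extract from 3 to 7 days, and so did that of all identifiers. By edgeR 5 members were higher and 11 lower, where 6.2% and 8.53% of all were. DESeq2 called 17 and 9, where 16.7% and 6.21% of all were. With RLE size factors the counts were 9 and 6, with no share over all identifiers beside them. Nothing is read from this turn about the members. On MEF feeders from 1 to 3 days, 2 higher and 1 lower became 2 and 13 without replicate 3 at 3 days. Counts of members called higher moved as follows, each beside the number given above. DESeq2 called 19 (14.3%) in U-bottom plates and 7 (5.26%) on the PA gel of experiment 3 from 1 to 3 days. Of all identifiers 2.95% and 0.897% were. In experiment 4 it called 26 (21.3%) and 25 (20.5%) over uncultured cells at 1 and 3 days, where 21.0% and 21.1% of all were. From 1 to 3 days it called 3 (2.46%) in flat plates, 10 (8.20%) on HFF1 feeders and 30 (24.6%) on MEF feeders. Of all identifiers 0.919%, 5.11% and 30.7% were. Feeders against flat had 1 (0.820%), where 0.326% of all were. In experiment 5 it called 1 and 12 over uncultured cells (0.813% and 9.76%, of all 0.889% and 3.79%). In flat plates it called 4 from 1 to 3 days and 7 from 3 to 7 days (3.25% and 5.69%, of all 1.84% and 7.72%). U-bottom plates had 3 and 11 (2.44% and 8.94%, of all 1.87% and 10.7%). With extract there were 2 and 17 (1.63% and 13.8%, of all 0.558% and 16.7%). From 3 to 7 days 9 were lower there (7.32%, of all 6.21%). U-bottom against flat had 1 (0.813%, of all 1.16%). Extract against none had 6 higher and 10 lower (4.88% and 8.13%, of all 3.96% and 3.57%). The difference of changes with extract had 1 (0.813%, of all 0.625%). AggreWell against flat had 9 higher and 22 lower (7.83% and 19.1%, of all 14.1% and 12.9%). Shares of all identifiers called higher by DESeq2 ran from 0.011% to 30.7% over the comparisons, with 30.7% on MEF feeders against 24.6% of the members. Counts for the other alternatives, here and with libraries left out in turn, have no share over all identifiers beside them. Nothing about the members as a set is read from those counts. With no filter there were 17 in U-bottom plates and 7 on the PA gel, 2 higher for the PA gel minus U-bottom change, 0 on MEF feeders, 4 in flat plates from 3 to 7 days, and 2 and 4 in U-bottom plates of experiment 5. With only the compared groups there were 2 in U-bottom plates and 8 on the PA gel, 21 at 3 days over uncultured cells and 0 on MEF feeders in experiment 4, and in experiment 5 5 and 13 over uncultured cells, 0 in flat plates from 1 to 3 days, 2 in U-bottom plates and 3 with extract from 3 to 7 days. Among the members named for a call, the fit of only the compared groups ended the calls of SMED30003905 from 1 to 3 days, SMED30005193 in flat plates, SMED30012577, SMED30027550, SMED30003372 with extract from 3 to 7 days, and SMED30024144 on MEF feeders and in flat plates of experiment 5. No filter ended those of SMED30003905 and of SMED30024144 on MEF feeders, RLE size factors that of SMED30012577, leaving out the abundant identifiers those of SMED30033874 and of SMED30024144 on MEF feeders, and the replicate block those 2 and SMED30000616 and SMED30022125. RLE size factors gave 18 and 16 over uncultured cells and 6 on MEF feeders in experiment 4, 2 in flat plates from 3 to 7 days, and 9 higher and 6 lower with extract. Leaving out the 4 abundant identifiers gave 23, 24 and 0 for the same 3 results of experiment 4. Keeping them in the totals left 4 of the 133 members.

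With libraries left out in turn, higher members ranged from 5 to 17 in U-bottom plates and 0 to 1 on the PA gel of experiment 3, from 3 to 10 and 2 to 6 over uncultured cells, 0 to 2 on MEF feeders and 0 to 1 for feeders against flat in experiment 4. In experiment 5 they ranged from 2 to 6 over uncultured cells at 3 days, 0 to 1 in flat and U-bottom plates from 1 to 3 days, 0 to 2 in flat, 1 to 2 in U-bottom and 3 to 8 in extract plates from 3 to 7 days, with 7 to 14 lower there, and 1 to 3 higher and 2 to 3 lower for extract against none. AggreWell ranged from 0 to 7 higher and 3 to 19 lower. The lower members ranged from 0 to 13 on MEF feeders and from 0 to 6 for feeders against flat. The cause was not tested.

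Libraries share only a replicate number. Deviations of same-numbered libraries correlated over 0.1 in 2 of 3 pairs of experiment 1 and 1 of 3 in experiment 2. The counts were 22 of 100 in experiment 3, 4 of 63 in experiment 4 and 2 of 135 in experiment 5. In experiment 1 the mean r was 0.297 for the same number and -0.143 for different numbers. In the other experiments the mean for the same number ran from -0.0822 to 0.00838. The main tests did not pair libraries. The deposited column names number the flat libraries of experiment 3 at 3 days 2, 3 and 4 and the second PA gel library at 3 days 3, where the labels have 1, 2 and 3 and 2. By the column numbers 19 of 92 pairs of experiment 3 correlated over 0.1, and a block on them, chosen after seeing the data, gave 8 higher members in U-bottom plates and 5 on the PA gel. With the labels' number as a block the calls were 1 on MEF feeders, 2 in flat plates and 1 in U-bottom plates from 3 to 7 days, and 2 higher and 9 lower in AggreWell. Groups of 2 or 3 libraries limit what can be called, and 23 and 18 members averaged under 1 CPM in experiments 4 and 5.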

Other observations

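The level of some members differed between tables, on CPM values of tables that were made separately. The uncultured mean (plus 1 CPM) was at least 4 times lower in experiment 4 than in experiment 3 for 12 members, and likewise in experiment 5 for 12 members, with 0 members that much higher in either. The share of all identifiers that differed this much was not counted. The rule asked for at least 1 CPM in uncultured cells of experiment 3, which favours this direction, so nothing is read from it. SMED30030780, chosen after its values were seen, was at 192 to 727 CPM in every library of experiments 1 to 3, at 0.365 to 10.3 CPM in experiment 4 and at 0 to 1.75 CPM in experiment 5. There were 3 members with no count in any library of experiment 4 and 4 in experiment 5.

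The summed level of the members was carried by a small number of them. The 10 highest members held 53.5% of the sum in uncultured cells of experiment 3, 52.1% in its flat plates at 3 days and 57.2% in flat plates at 3 days of experiment 5. SMED30004472, the highest member at 3 days, was at a mean of 475 CPM in uncultured cells, 671 CPM at 1 day, 840 CPM at 2 days and 1033 CPM at 3 days in flat plates of experiment 3. In AggreWell plates it was at 273 ± 41.2 CPM and in flat plates of experiment 2 at 533 ± 37.3 CPM (SD, n = 3 each), lower by a log2 fold change of -0.91 with an SE of 0.23 (edgeR adjusted p = 0.0140).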
